A study of Solanum virginianum with 2 samples.

Results

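The small RNA miR396 and transcripts whose symbols were read as those of growth-regulating factors (GRFs) were followed in pooled pistils of the purple eggplant line 'B3-3'. The small RNA names were those holding miR396 or MIR396, except csi-MIR396c-p3_1ss11TC, a U and C repeat, and they came to 9 of the 686 listed sequences. The transcripts were those with a symbol of GRF and a number, 11 of the 12937 in the degradome table, of which 10 were paired with a miR396 name. The 10 carried the symbols GRF4 (4 transcripts), GRF6 (3 transcripts), GRF1, GRF5 and GRF10, and the eleventh carried GRF11. There were 2 libraries and no replicate. The small RNA library (reads of short RNAs) and the degradome library (5′ ends of uncapped, polyadenylated RNA, which include cleavage products) were each a mixture of short-styled (S-morph) and long-styled (L-morph) pistils, so the morphs could not be compared. According to the sample labels, both mixtures covered buds of 1 to 3 and 3 to 6 days, with no treatment, while the extraction protocol adds phase 5 (days 13 to 15) for the degradome. The labels name the organism Solanum virginianum and the series title names Solanum melongena. Listed were 135737 small RNA reads and, for the degradome, 18764 pairs in which a small RNA was predicted to bind a transcript.

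In plants, miR396 guides Argonaute to a site within the coding region of most GRF transcripts, in the stretch encoding the conserved WRC domain, and the transcript is cut there. GRFs are transcription factors that act with GRF-interacting factor (GIF) coactivators to keep cells of young organs dividing. In Arabidopsis, excess miR396 lowers GRF activity and disturbs carpel and pistil formation, and in tomato, blocking miR396 enlarges flowers and fruit. The symbol GRF is also used in Arabidopsis for 14-3-3 proteins (general regulatory factors). The deposited table gave no annotation text, GO term, KEGG pathway or KOG class for any of the 11 transcripts, so which meaning a symbol carries was not given.

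The 9 sequences are shown because the transcripts they were paired with follow from them. They are written 5′ to 3′ as deposited, with the seed (bases 2 to 8) in capitals. The prefix gives the plant of the closest known miRNA (nta is tobacco, cca globe artichoke or cardoon, aly Arabidopsis lyrata, gma soybean, sbi sorghum), L and R give bases added or removed at the 5′ and 3′ ends, and ss marks a substitution.
nta-miR396a: uUCCACAGcuuucuugaacug
nta-miR396b: uUCCACAGcuuucuugaacuu
nta-miR396b_R+1: uUCCACAGcuuucuugaacuuu
sbi-miR396c_R+3: uUCCACAGcuuucuugaacuuuug
gma-miR396a-5p_L+3: aUCUUCCAcagcuuucuugaacug
cca-miR396a-3p_L-1R+1_1ss3TC: uCCAAGAAagcugugggaaaa
aly-miR396a-3p_L-1R+1: uUCAAUAAagcugugggaaga
nta-MIR396c-p3_1ss1TC: cCAAGAAAgcugugggaaaac
The ninth, sbi-MIR396c-p3_1ss10CT, is an alternating repeat without A or G, here in lower case throughout: ucucucucuuucucucucucucuc.

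The first 4 share the seed UCCACAG, which no other of the 686 sequences had. Positions counted from 1 at the 5′ end, nta-miR396a and nta-miR396b differ by G21U alone. The _R+1 form is nta-miR396b with 1 base added at its 3′ end, and the sorghum-named form is nta-miR396b with 3 added. The soybean-named form is nta-miR396a with 3 bases added at the 5′ end, which moves the seed to UCUUCCA. The 3p forms are sequences of the opposite arm of the hairpin. The cca form pairs with nta-miR396a over a run of 14 Watson-Crick base pairs and the aly form over a run of 10. Between the cca and aly forms the substitutions are C2U, G6U and A20G.

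Most miR396 reads came from the 5p (guide) arm, in the tobacco forms a and b. The family had 1169 reads, 0.861% of the listed reads (0.813 to 0.912%, exact Clopper-Pearson 95% interval, which like all intervals here covers counting error only). By reads, miR396 ranked 18 of 77 miR numbers. nta-miR396a had 553 reads and ranked 35 among the 686 sequences, and nta-miR396b had 464 reads and ranked 38. Together they held 1017 of the 1169 reads (87.0%, 84.9 to 88.9%). Form a made up 54.4% of the a and b reads (51.3 to 57.5%), so the forms were close in number. The longer 5p forms were rare, with 8 reads for sbi-miR396c_R+3, 6 for nta-miR396b_R+1 and 5 for gma-miR396a-5p_L+3.

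The 3p arm was present at a lower level. cca-miR396a-3p had 68 reads, aly-miR396a-3p had 60 and nta-MIR396c-p3 had 1. The 5p arm thus held 1036 of the 1165 reads of the arms (88.9%, 87.0 to 90.7%). The repeat sbi-MIR396c-p3_1ss10CT had 4 reads. Reads with the seed UCCACAG numbered 1031, or 88.2% of the family (86.2 to 90.0%).

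**Figure D1:**
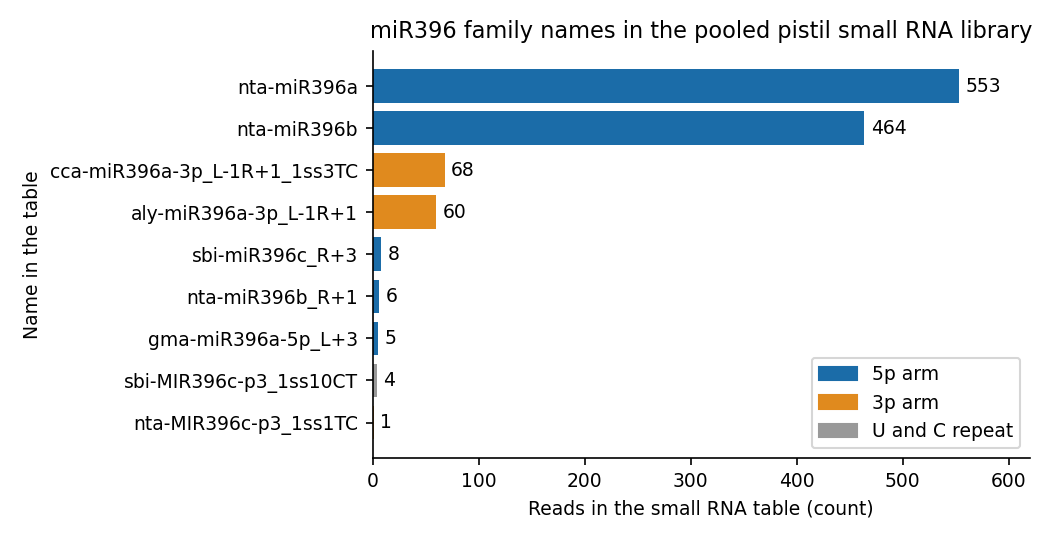
Reads (count, horizontal axis) of each of the 9 miR396 names in the small RNA library, coloured by arm, with 1 bar per name. nta-miR396a (553) and nta-miR396b (464) stand far above the 3p forms (68, 60 and 1) and the longer 5p forms (8, 6 and 5).

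The forms differed in the pairs listed for them. The table lists a predicted pair where the authors' alignment score, in which lower means a better match, was at most 4. nta-miR396a and nta-miR396b were each paired with all 10 GRF transcripts, among 34 and 32 pairs. nta-miR396b_R+1 was paired with 4 of them (GRF4 Sme2.5_00130.1_g00023.1 and Sme2.5_00676.1_g00016.1, GRF6 Sme2.5_00924.1_g00005.1 and Sme2.5_07193.1_g00001.1) among 17 pairs. sbi-miR396c_R+3 was paired with 1, GRF4 Sme2.5_00676.1_g00016.1, among 3 pairs. The 5′ extended soybean form, the 3p forms and the repeat were paired with 0 GRF transcripts. The scores against form b were higher than those against form a on every GRF transcript, by 1 on 6 transcripts and by 0.5 on 4. Every listed GRF pair of nta-miR396b, nta-miR396b_R+1 and sbi-miR396c_R+3 had a score of 4, the highest listed. A longer form scoring above 4 at the same site would not be listed.

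Of the 10 GRF transcripts paired with miR396, 9 had degradome reads at the predicted cleavage position (90.0%, 55.5 to 99.7%). Over all transcripts, 5.15% had such reads at any predicted site. The authors' category runs from 0 to 4, with 0 by convention for a site that has the transcript's strongest signal and 4 for a site with 1 read. Category 0 held 4 of the 10 GRF transcripts, against 0.309% of all transcripts. Category 2 held 1 and category 4 held 4, and 1 had no read. Counting only reads that match 1 place, 8 of the 10 had reads and 3 were in category 0. Each of the 9 transcripts had a single miR396 cleavage position, which all its paired names shared. The 10 carry related sequences and are not independent of each other, so the counts stand as a description.

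GRF5 had the most reads. GRF5 (Sme2.5_09470.1_g00002.1) had 130 raw reads at nucleotide 704 (108.6 to 154, exact Poisson 95% interval), within an aligned site at nucleotides 693 to 714 of the transcript. Its 130 normalized reads, which the authors appear to have obtained by dividing reads over the places they match, equalled the raw reads. A gene named GRF5 is known in Arabidopsis to promote cell proliferation in leaf primordia. Whether the transcripts here and below are counterparts of the Arabidopsis or rice genes of the same symbol was not examined.

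The 4 transcripts with the symbol GRF4 spanned nearly the whole range. GRF4 is known in rice for raising grain size when its miR396 site is altered. Sme2.5_00676.1_g00016.1 had 85 raw and 85 normalized reads at nucleotide 347 (67.9 to 105). Sme2.5_00130.1_g00023.1 had 15 raw reads at nucleotide 392 (8.40 to 24.7) but 7.5 normalized reads. Sme2.5_00228.1_g00005.1 and Sme2.5_02022.1_g00007.1 had 1 raw read each, at nucleotides 566 and 125 (0.0253 to 5.57). The first of the 4 was thus separate in its interval from the other 3, and the single-read transcripts were both in category 4.

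GRF1 and GRF6 transcripts had fewer reads. GRF1 (Sme2.5_00661.1_g00012.1), which in Arabidopsis promotes leaf and cotyledon growth, had 13 raw and 13 normalized reads at nucleotide 467 (6.92 to 22.2), in category 0. GRF6 Sme2.5_00924.1_g00005.1 had 3 raw reads at nucleotide 671 (0.619 to 8.77) in category 2. GRF6 Sme2.5_01402.1_g00013.1 had 1 read at nucleotide 497. GRF6 Sme2.5_07193.1_g00001.1, with a predicted site at nucleotides 699 to 720, had 0 reads. This was read as at most 3, a fixed limit and not a Poisson interval. GRF10 (Sme2.5_00003.1_g00061.1) had 1 read at nucleotide 461. The intervals of GRF5 and of GRF4 Sme2.5_00676.1_g00016.1 overlapped neither each other nor those of lower transcripts. Those of GRF4 Sme2.5_00130.1_g00023.1 and GRF1 overlapped each other and that of GRF6 Sme2.5_00924.1_g00005.1. The order among transcripts of 3 reads or fewer cannot be told at this depth.

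**Figure D2:**
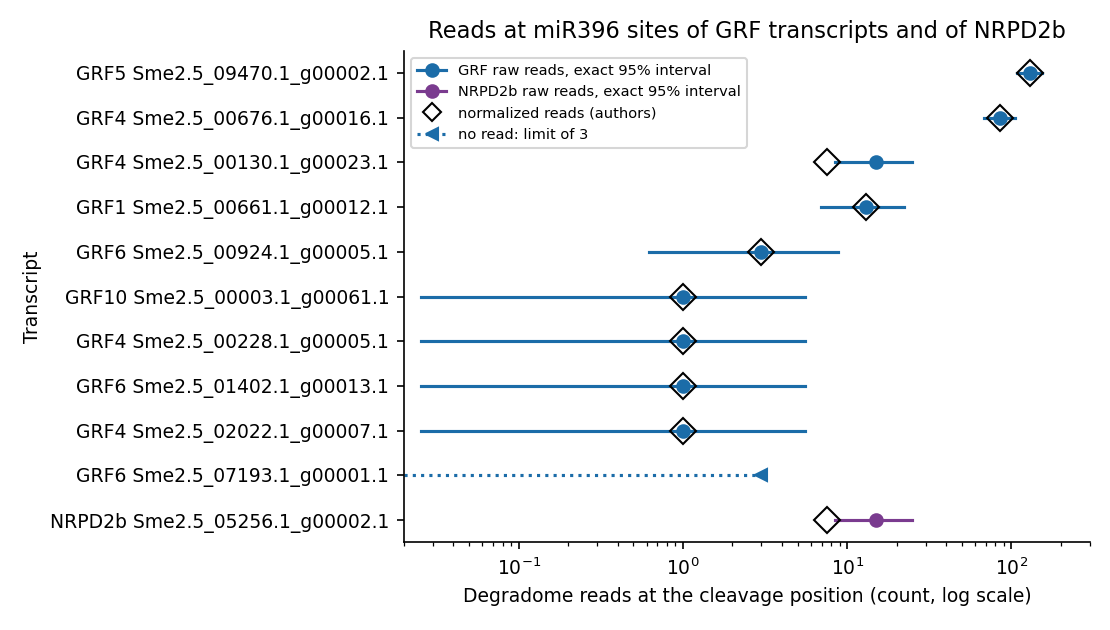
Degradome reads at the miR396 cleavage position (count, log scale) for the 10 GRF transcripts and NRPD2b, with filled points for raw reads, bars for exact Poisson 95% intervals, open diamonds for the authors' normalized reads and a left-pointing mark for the limit of 3 where no read was found. GRF5 (130) and 1 GRF4 transcript (85) lie above the rest, and 1 GRF4 transcript and NRPD2b have 15 raw but 7.5 normalized reads.

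Reads at the GRF sites thus came mainly from a pair of transcripts. The 9 positions had 250 raw reads in all, of which GRF5 and GRF4 Sme2.5_00676.1_g00016.1 supplied 215 (86.0%, 81.1 to 90.1%). The median GRF position had 3 raw reads, beside a median of 1 over all 825 detected positions. The transcript levels were not measured, so a site with many reads cannot be told apart from an abundant transcript.

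The authors' p did not follow the number of reads. In the authors' deposited table, the p with nta-miR396a was 0.0149 for all 4 GRF transcripts in category 0, from 13 reads to 130. With nta-miR396b it was 0.0295 for the same 4. For GRF6 Sme2.5_00924.1_g00005.1 with nta-miR396a the deposited table gave 0.525, and for the single-read transcripts 0.69 or 0.732. A p at most 0.05 in that table was thus given to the same 4 GRF transcripts that were in category 0. Over all transcripts, category 0 and a p at most 0.05 each held 0.309%, so the p is not a result separate from the category.

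Within category 0, the GRF sites held a sizeable part of the raw reads of all small RNAs. Category 0 marks the strongest signal of a transcript, not of the library. All 825 detected positions held 4484 raw reads, 250 of them at GRF sites, and the highest position had 754. Category 0 contained 40 positions in the whole table with 1044 raw reads, and the 4 GRF positions supplied 243 of these reads (23.3%, 20.7 to 26.0%). Raw reads matching several places appear to count at each of them, which this interval does not allow for. Among these 40 positions GRF5 ranked first, ahead of SCL6, the GRAS transcription factor cut by miR171, with 86 reads (68.8 to 106). The interval of SCL6 did not overlap that of GRF5. GRF4 Sme2.5_00676.1_g00016.1 came next, and its interval overlapped those of SCL6 and of the next 3 positions, a pair of ARF8 transcripts (79 and 78 raw reads) and ARF18 (72), and also those of both TIR1 positions (61 each). In normalized reads, GRF4 had 85, the ARF8 transcripts 40 and 39 and the TIR1 transcripts 19.1 each, so the closeness to these holds for raw reads. GRF4 Sme2.5_00130.1_g00023.1 shared rank 18 and GRF1 had 13 reads, near the category 0 median of 14. These ranks compare positions within 1 library and carry no replicate check.

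**Figure D3:**
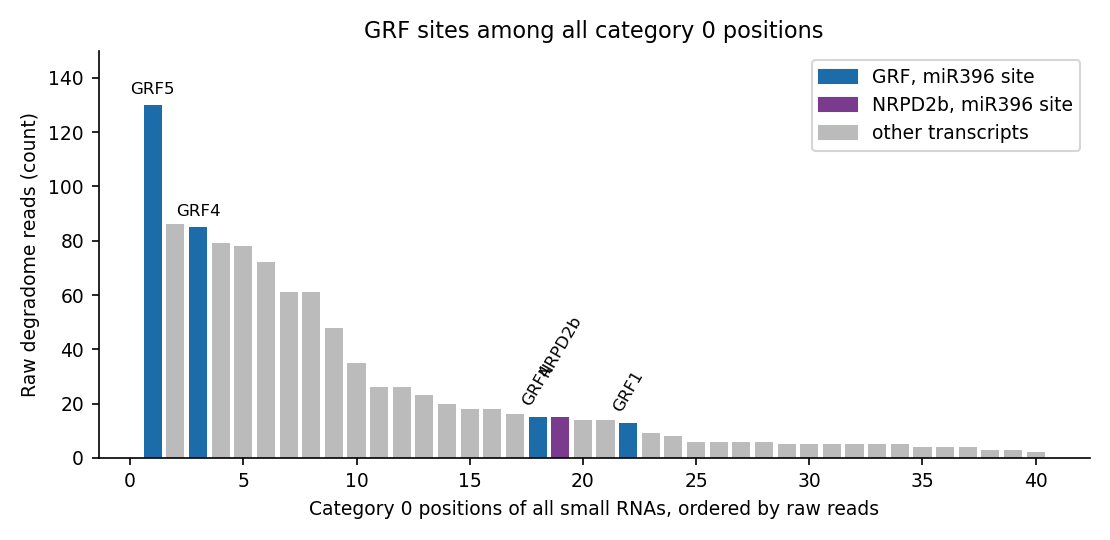
Raw degradome reads (count) of the 40 category 0 positions of all small RNAs, ordered from highest to lowest, with GRF positions in blue, NRPD2b in purple and other transcripts in grey. GRF5 is first with 130 reads, a GRF4 transcript follows SCL6 with 85, and the other GRF positions have 15 and 13.

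A transcript annotated as an RNA polymerase subunit shared the features of a GRF site. Sme2.5_05256.1_g00002.1, symbol NRPD2b and annotation DNA-directed RNA polymerase II subunit B, had 15 raw and 7.5 normalized reads at nucleotide 443, in category 0. These values are the same as those of GRF4 Sme2.5_00130.1_g00023.1, and so are its scores of 3 with nta-miR396a and 4 with nta-miR396b. Each transcript was thus credited with 7.5 of 15 reads, as it would be for reads matching both, and the reads cannot be assigned to either. NRPD2b was also paired with sbi-miR396c_R+3 (score 4), which the GRF4 transcript was not. It was paired with 4 small RNA names in all, each of them a 5p miR396.

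Few other predicted miR396 targets had reads. The 5p names were paired with 40 transcripts other than GRFs, of which 2 were detected (5.00%, 0.611 to 16.9%), near the 5.15% of all transcripts. They were NRPD2b and Sme2.5_08882.1_g00001.1, which has no symbol, with 1 read. By pairs, 22 of the 25 GRF pairs were detected (88.0%, 68.8 to 97.5%) and 6 of the 62 other 5p pairs (9.68%, 3.63 to 19.9%), beside 5.38% of all pairs. NRPD2b supplied 4 of the 6 other 5p pairs. Names paired with the same site shared its reads, so pairs are not independent, which the intervals do not allow for. Category 0 held 11 of the 25 GRF pairs and 0.634% of all pairs. The 3p names had 10 pairs, of which 0 were detected, which an exact interval limits to at most 30.8%. The U and C repeat sbi-MIR396c-p3_1ss10CT had 7 of 50 pairs detected (14%, 5.82 to 26.7%), with 4 reads on KIN12A, 2 on Tbl1xr1 and 1 on each of RH42, cyp13, Prpf4b, At4g12780 and Sme2.5_09593.1_g00001.1. Of the 277 raw reads at all family positions, 250 lay on GRF transcripts (90.3%, 86.1 to 93.5%), and with normalized reads the share was 93.1%. With the left-out repeat csi-MIR396c-p3_1ss11TC counted as family, the share was 23.2% (20.7 to 25.9%). The intervals of these read shares do not allow for reads counted at several places, as appears so for GRF4 Sme2.5_00130.1_g00023.1 and NRPD2b.

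The lowest alignment scores did not belong to the transcripts with the most reads. The GRF transcripts had scores of 3 (6 transcripts) or 3.5 (4 transcripts) with nta-miR396a. All 4 in category 0 had a score of 3, as had GRF4 Sme2.5_00228.1_g00005.1 and GRF6 Sme2.5_01402.1_g00013.1 with 1 read each, while 0 of the 4 with 3.5 were in category 0. Of the 40 other transcripts, 8 had a 5p score of at most 3, and NRPD2b was the only one of these detected. The lowest 5p score, 2 with nta-miR396b, belonged to Sme2.5_08614.1_g00004.1 (symbol At3g49610), which had no read. DRM2 (Sme2.5_01715.1_g00011.1), named after a DNA methyltransferase, and Sme2.5_00723.1_g00006.1, annotated as glycerol-3-phosphate O-acyltransferase, had a score of 2.5 and no read. GLK2 (Sme2.5_04963.1_g00004.1), named after a regulator of chloroplast development, had a score of 3 and no read. The GRF sites were aligned with 1 extra base (below), and how the score counts that base is not given.

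**Figure D4:**
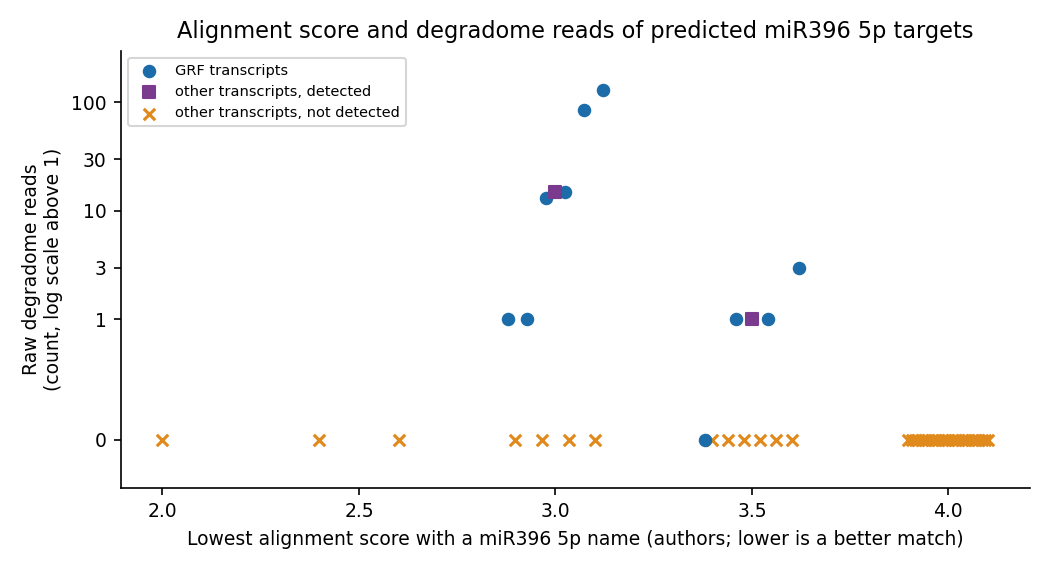
Lowest alignment score with a 5p miR396 name (authors' score, horizontal axis) against raw degradome reads (count, log scale above 1) for 10 GRF and 40 other transcripts, with points of the same score spread sideways to be visible. GRF transcripts with 13 to 130 reads have a score of 3, while 3 other transcripts with scores of 2 or 2.5 have no read.

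The GRF sites shared a geometry that the choice of symbols did not use. In all 25 GRF pairs the aligned site on the transcript was 1 nt longer than the small RNA, so a 21 nt miR396 lay on 22 nt. This was so for 7 of the 62 other 5p pairs (11.3%), 4 of which were those of NRPD2b, and for 2200 of 18747 pairs with a position (11.7%). In all 22 detected GRF pairs the cleavage position lay 10 nt before the last base of the site. These pairs were 9 positions listed under several names. Among all 1010 detected pairs, 37 were cut 8 nt before the last base (3.66%). A further 923 were cut 9 nt before it (91.4%) and 50 were cut 10 nt before it (4.95%). No detected pair was cut elsewhere, so the cut position is tied to the alignment and is not a separate feature. Of those 50, GRF transcripts supplied 22 and NRPD2b 4. The rest lay on 18 other transcripts, of which 3 were in category 0 (DCL1, cut by miR162, and the ARF8 transcripts of miR167) and 15 in category 2 or 4, among them RPL24 and At5g03795 (aly-MIR169b-p3_1ss4TC, 61 raw reads each). If the cut is called opposite the same small RNA base in every pair, which is not stated, the extra base lies between the cut and the site's last base. The transcript sequences were not used here, so its exact place was not determined. In Arabidopsis and rice, a bulged base opposite the 5′ part of miR396 is known in GRF sites.

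The sites also fell at matching steps along the transcripts. The last base of the site ranged from nucleotide 135 to 720, and divided by 3 it left remainder 0 in all 10 GRF transcripts. Every one of the 9 cleavage positions left remainder 2, which follows from their distance of 10 nt to the last base. NRPD2b had the same remainders at nucleotides 453 and 443. Among the sites of 5p names on other transcripts 28 of 41 had remainder 0 (68.3%), among all sites 34.9% had it, and among the 40 category 0 sites 14 did (35%). If the transcripts are numbered from their start codon, which the files do not state, the GRF sites lie in the same reading frame. This feature was noticed after the values were seen, the 10 sites belong to related genes, and no test was made.

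**Figure D5:**
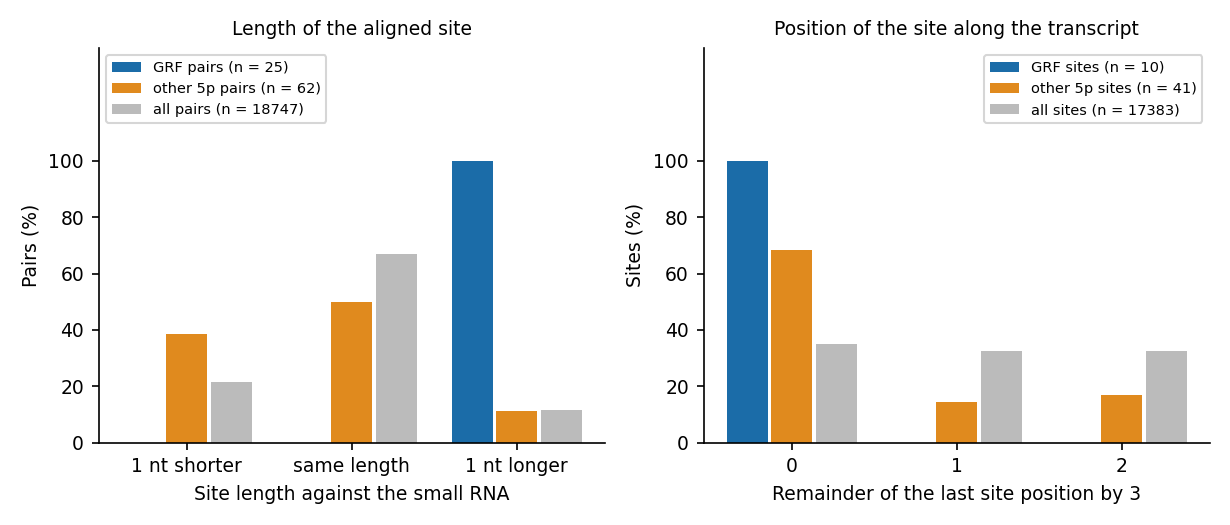
Left, percent of pairs whose aligned site is 1 nt shorter than, as long as or 1 nt longer than the small RNA, and right, percent of sites by the remainder of their last position divided by 3, for GRF transcripts (blue), other transcripts of 5p miR396 names (orange) and the whole table (grey). All 25 GRF pairs are 1 nt longer, against 11.3% and 11.7%, and all 10 GRF sites have remainder 0, against 68.3% and 34.9%.

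Small RNAs outside the family had 3 predicted pairs on GRF transcripts and no reads. GRF10 was also paired with PC-3p-20509_45 and ptc-MIR6426b-p5, both at score 4, and neither pair was detected. GRF11 (Sme2.5_00395.1_g00009.1) was paired with ptc-MIR6426b-p5 alone, at score 1.5, with no read.

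Genes that act with GRFs were sought by symbol and annotation, whichever small RNA they were paired with. Of the GRF coactivators 1 transcript was listed, GIF2 (Sme2.5_02996.1_g00004.1), paired with gma-MIR4407-p5_1ss5CT and not detected. The counts of detected transcripts here stand beside 5.15% of all transcripts. Of other targets reported for miR396, namely bHLH74 and bHLH79, FLU, WRKY6, SVP and cysteine proteinases, 0 were found by these words. RD21A (Sme2.5_01501.1_g00003.1), named after a cysteine proteinase of Arabidopsis and noticed only when the predicted targets were read through, was missed by the words. It was paired with nta-miR396b at score 4 and had no read. TCP transcription factors, some of which miR319 targets and which raise miR396 in Arabidopsis, had 14 transcripts. Of these 4 were detected, each paired with miR319, with 4 raw reads on TCP3 Sme2.5_00555.1_g00005.1, 2 on TCP3 Sme2.5_01505.1_g00003.1 and 1 each on TCP2 and TCP4. The words for KNOX genes and for B-type cyclin-dependent kinases found 0 transcripts. The words for cyclins, which drive the cell cycle, found 12 transcripts by symbol or annotation. Of these 1 was detected, CYCD3-3, a D-type cyclin, with 1 read. Among the 12, GLYK and AAE2 have symbols that do not name a cyclin and were found by annotation alone, and CYCD6-1 is annotated as cyclin B. The 9 miR396 names were paired with no transcript found by these words. The left-out repeat was paired with 3 TCP transcripts, without reads.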

How the data were processed

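The submitters pooled S- and L-morph pistils into 1 small RNA library (Illumina TruSeq kit, per the labels' protocols) and 1 degradome library. The programs that named the small RNAs, predicted targets and set categories, and the genome build, are not given in the sources used here. Per the file headers, the small RNA table holds read counts per sequence, and the degradome table the authors' alignment score, category (also a score), raw read counts and p-value per pair. The deposited normalized reads and TPB are signal values. TPB was 105.324 per normalized read. If TPB scales to 1e+09 reads, the library held 9494500 reads, and normalized reads fell below raw reads in 360 of 1010 detected pairs. Positions are nucleotides along the transcript. For positional shares, 17 pairs at position 0 were left out.

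Members and gene lists were chosen with earlier results of these data known. Named were every GRF transcript, the 4 family sequences with 10 or more reads (the other 5 were added to account for every member), the 10 other family transcripts of lowest category and most reads (9 had reads), and category 0 neighbours of GRF5 and GRF4 in reads. Transcripts without reads at low scores, and the site geometry, were picked after their values were seen. Intervals are exact Clopper-Pearson (shares) and exact Poisson (reads), both 95%, and reflect counting error alone, with 1 library of each kind. PCR copies were not marked by molecular identifiers, so copies of 1 molecule may count as separate reads, which the intervals do not allow for. The intervals treat pairs and reads as independent, though a site can be listed under several names and a read counted at several places. The interval code was tested on simulated counts. A count of 0 was read as at most 3. No groups were compared and no test was run, with 1 library of each kind. Alternatives changed the names, sites, score and unit of reads. Software was SciPy 1.17.1, NumPy 2.4.6, pandas 2.3.3 and matplotlib 3.10.9 under Python 3.11.15.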

Additional observations from a re-analysis of the deposited data

How the results depend on the processing

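Of 24 alternative values, 14 stayed within counting error or within 1.5 times the count given, and 10 moved. The number of GRF transcripts with reads, 9, was 4 with the authors' p at most 0.05, 5 in categories 0 to 2 and 5 with at least 2 raw reads, since 4 of them had a single read. GRF4 Sme2.5_00130.1_g00023.1 had 7.5 normalized in place of 15 raw reads. The share of family pairs detected, 23.8%, was 14.8% with the left-out repeat name, 16.4% by transcripts, 13.6% in categories 0 to 2 and 32.2% with 5p names only. The share of site reads on GRF transcripts, 90.3%, was 23.2% with the left-out repeat name and 94.0% without the second repeat name. Leaving out the second repeat name and restricting to 5p names were chosen after seeing the data. The choice of GRF transcripts by annotation text gave no value, as 0 transcripts have such text. No paired analysis was possible because each kind of library had 1 sample and no groups were compared. Without replicates, plant to plant variation was not measured, and sites of 3 reads or fewer are at the limit of the depth.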
